A study of Mus musculus with 6 samples.

Results

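The genes described here are 37 genes of DNA replication and mitosis, compared between the lower molar tooth germ and neighbouring oral tissue of mouse embryos. They are listed by name, in a list drawn up with earlier results of these data known, and fall into 19 replication genes and 18 mitosis genes. The arrays gave a value for 35 of them among 19057 genes in all. All 19 replication genes and 16 of the mitosis genes were measured, while Mki67 and Ccnb1 had no probe paired with their symbol and were not analysed here. The embryos were of the outbred CD-1 strain at embryonic day 13.5, and the labels name no treatment or engineered allele. Tissue of each kind was pooled across mice, and 3 litters were sampled for both tissues, so n = 3 per tissue and each pool hides the spread between embryos. Signals are on a log2-like scale, on which a difference of 1 is about a doubling, and are called log2-scale signals below.

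Which libraries hold tooth germ is not settled by the labels. By their titles it is one set of 3 libraries, while the source names and tissue fields name the opposite set. Groups here follow the titles and are called titled tooth germ and titled oral tissue. Every sign below turns if the tissue fields are right. By title, Msx1, a homeobox gene of dental mesenchyme, rose in tooth germ by 1.47 (log2 difference, adjusted p = 6.3e-05, limma) and Shh, a ligand of dental epithelium, by 0.78 (adjusted p = 0.0022). The muscle factors Myod1 and Myog fell there (differences -1.47 and -1.54, adjusted p = 1.6e-05 for each). The tissues also differed in their cell types by the marker lists. Genes are counted here where limma called them at adjusted p under 0.05. Of all genes it called 2.39% higher and 3.42% lower. Of 10 epithelial genes 7 were called higher. The mean signal of the list lay at 10.06 to 10.18 in titled tooth germ and 9.43 to 9.59 in titled oral tissue. Of 11 skeletal muscle genes 9 were called lower (9.04 to 9.27 against 10.38 to 10.97). So were 6 of 8 macrophage genes (7.95 to 8.06 against 8.24 to 8.45) and 3 of 8 neuronal genes (7.34 to 7.48 against 7.84 to 8.44). Of 7 endothelial genes 1 was called lower (8.74 to 8.76 against 8.84 to 9.02). Among 8 erythroid genes limma called 0, and 0 had an unadjusted p under 0.05 (9.69 to 10.13 against 9.75 to 10.01). The part of these cell types in the values below was not tested. In whole tissue, fewer cells of a type and less RNA per cell cannot be told apart.

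Cells copy their DNA in S phase and divide in M phase, and each phase has its own set of periodically expressed genes. Before S phase the MCM helicase is loaded at origins by Cdc6 and Cdt1, and it is later activated together with the GINS complex. Transcription of many of these genes is driven by E2F factors, which the retinoblastoma protein holds in check. Genes of mitosis are transcribed later, largely through the CHR element and CCAAT boxes bound by the DREAM and MuvB complexes and by NF-Y. In the tooth bud, proliferation of epithelium and mesenchyme accompanies growth towards the cap stage, and embryonic muscle precursors leave the cell cycle as they differentiate.

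The promoters of the members were searched for these elements. RefSeq windows of 300 bases (250 before and 50 after a transcription start, GRCm38.p6) matched 28 of the 35 measured members. Words of 3 kinds were searched on both strands, namely E2F words (spelled TTCCCGC or in the variant TTCGCGC or in the variant TTGGCGC), CHR words (spelled TTTGAA or in the variant TTCGAA) and the box spelled CCAAT. Words may overlap, both within a kind and between an E2F word and a CCAAT box. An E2F word stood in the windows of 7 of 15 replication genes (46.7%), 1 of 13 mitosis genes (7.69%) and 9.2% of all 27025 genes with a window. A CHR word stood in 11 of 13 mitosis genes (84.6%), 2 of 15 replication genes (13.3%) and 21.7% of all genes. A CHR word and a CCAAT box together stood in the same 11 mitosis genes, 2 replication genes and 8.61% of all genes, and of the mitosis genes Birc5 and Cenpe alone lacked the combination. With or without a CHR word, a CCAAT box stood in 12 of 13 mitosis genes (92.3%), 9 of 15 replication genes (60%) and 41.1% of all genes. A word is a match of letters and not evidence of a bound factor.

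The 250 bases before the start are shown for the members with the largest differences, sign aside, in each list. These members were chosen by size alone, and none of them passed the main test given below. Tk1 is not shown because 73 of these bases lie within a longer model of the gene, and its window holds none of the words. For Kif23 11 of the bases shown lie within such a model, and for the others 0. Capitals mark E2F words, CHR words and CCAAT boxes, read 5′ to 3′ on the strand of the gene.
Mcm10, GRCm38.p6 chr2:5012792-5013041, minus strand: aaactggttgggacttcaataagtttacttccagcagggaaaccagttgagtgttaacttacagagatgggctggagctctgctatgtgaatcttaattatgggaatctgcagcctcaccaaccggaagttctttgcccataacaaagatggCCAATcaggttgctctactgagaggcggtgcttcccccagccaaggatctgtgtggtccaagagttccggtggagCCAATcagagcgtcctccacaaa
Mcm6, GRCm38.p6 chr1:128359706-128359955, minus strand: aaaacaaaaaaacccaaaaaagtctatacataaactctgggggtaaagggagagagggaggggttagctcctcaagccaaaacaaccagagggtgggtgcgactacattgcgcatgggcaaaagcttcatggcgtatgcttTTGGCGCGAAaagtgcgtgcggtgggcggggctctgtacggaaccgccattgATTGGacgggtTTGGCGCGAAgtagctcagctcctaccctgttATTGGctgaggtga
Kif11, GRCm38.p6 chr19:37376132-37376381, plus strand: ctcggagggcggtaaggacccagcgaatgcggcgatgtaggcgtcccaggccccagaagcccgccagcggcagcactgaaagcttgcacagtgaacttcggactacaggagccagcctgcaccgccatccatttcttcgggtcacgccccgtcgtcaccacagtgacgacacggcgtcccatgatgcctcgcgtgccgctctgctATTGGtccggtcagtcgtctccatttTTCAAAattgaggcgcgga
Cdc20, GRCm38.p6 chr4:118437344-118437593, minus strand: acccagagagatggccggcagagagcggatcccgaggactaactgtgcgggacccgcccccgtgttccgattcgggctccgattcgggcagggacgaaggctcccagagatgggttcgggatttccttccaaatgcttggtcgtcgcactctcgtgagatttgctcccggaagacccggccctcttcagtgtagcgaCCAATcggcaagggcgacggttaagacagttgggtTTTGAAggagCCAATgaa
Kif23, GRCm38.p6 chr9:61946800-61947049, minus strand: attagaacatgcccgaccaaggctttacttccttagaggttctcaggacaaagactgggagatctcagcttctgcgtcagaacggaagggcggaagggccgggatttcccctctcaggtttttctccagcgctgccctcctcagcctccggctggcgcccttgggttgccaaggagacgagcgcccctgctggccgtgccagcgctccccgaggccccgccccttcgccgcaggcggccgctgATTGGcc
Mcm6 carries 4 E2F words in the stretch shown, as 2 overlapping pairs that begin 109 and 46 bases before the start, and 2 CCAAT boxes. Mcm10 has 2 CCAAT boxes in the stretch shown and 1 after the start, and no E2F word. Mcm6 has 1 more E2F word after the start. Kif11 and Cdc20 pair both elements, with the CHR word 19 and 18 bases before the start and a CCAAT box at 45 and 53 bases. Kif23 shows a CCAAT box 7 bases before the start, and its CHR word lies in the bases after the start that are not shown.

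The comparison of titled tooth germ with titled oral tissue asked whether replication and mitosis genes are at different levels in the molar bud and its surroundings. None of the 35 members passed the test (limma, adjusted p under 0.05), where 5.81% of all 19057 genes did, 2.39% higher and 3.42% lower, and 8.85% of the 12150 genes whose mean lay above the median of all values, 7.01. With litter as a fixed block 1 member, Mcm10, was called higher, against 3.86% of all genes, and with litter as a random effect 0 were called (Mcm10 had adjusted p = 0.0582 with an estimated correlation). At an unadjusted p under 0.05 there were 9 members, all of them higher in titled tooth germ, of which 8 were replication genes and 1, Kif11, a mitosis gene. By that measure 8.25% of all genes were higher and 8.86% lower, and 11.6% of the genes above the median value were higher. Differences of the replication genes had a median of 0.17 and ran from -0.14 to 0.27, and those of the mitosis genes had a median of 0.0056 and ran from -0.21 to 0.21 (log2 differences). The median over all genes was 0.0026. The mitosis median ran from -0.0082 without litter 3 to 0.023 without oral tissue library 2, and was 0.036 with dim genes removed, so its sign is not fixed.

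**Figure D1:**
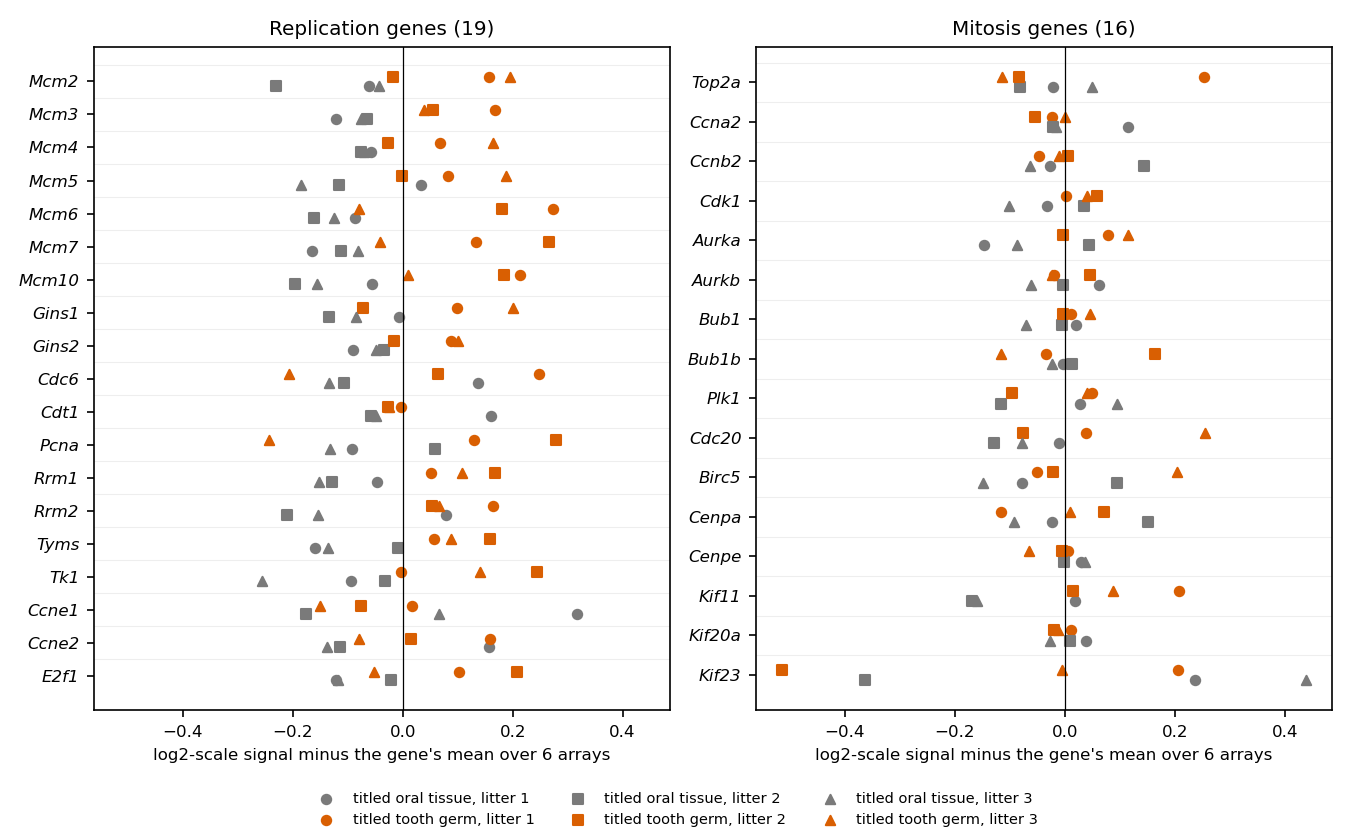
Log2-scale signal of each member in each of the 6 libraries, minus the mean of that gene over the 6 arrays (x axis), with 1 gene per row. Grey points are titled oral tissue, orange points titled tooth germ, and the shape gives the litter. For 10 of 19 replication genes every orange point lies to the right of every grey point, and for none of the 16 mitosis genes.

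All 3 libraries of titled tooth germ read above all 3 of titled oral tissue for 10 of 19 replication genes and for 0 of 16 mitosis genes. Over all genes 11.9% were so placed, 11.2% had the opposite order, and 23.1% had either. Of the genes above the median value, as every replication gene was, 15.7% were so placed. The difference was above 0 in each of the 3 litters for 15 replication genes and 3 mitosis genes, against 21.6% of all genes and 26.6% of those above the median value. It was below 0 in each litter for 0 replication genes and 2 mitosis genes, against 19.8% of all genes. The median of the replication genes was 0.13, 0.17 and 0.15 in litters 1, 2 and 3, and that of the mitosis genes was -0.014, -0.0027 and 0.045. Small positive values were thus shared over many replication genes and over the litters, while the adjusted p of single genes ran from 0.101 to 0.885. The genes are not independent of each other, so no p is given for a list.

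The helicase genes Mcm2 to Mcm7, which encode the ring that unwinds DNA at the fork, all read higher in titled tooth germ, by 0.14 to 0.25 (median 0.20). Mcm6 read 11.19, 11.12 and 11.15 in the oral libraries against 11.55, 11.46 and 11.20 in the tooth germ libraries, in the order of litters. The groups did not overlap, but the tooth germ library of litter 3 lay within 0.046 of its partner. The difference was 0.25 (SE 0.094, 95% interval 0.043 to 0.45, adjusted p = 0.183, limma), and without that library it was 0.35 (adjusted p = 0.0273). The brightest probe of Mcm7 had the same weak point in litter 3, with 9.73, 9.78 and 9.82 against 10.03, 10.16 and 9.85 (difference 0.24, SE 0.091, adjusted p = 0.189). The dimmer probe of Mcm7 did not, with 8.31, 8.28 and 8.22 against 8.56, 8.50 and 8.53 (0.26, adjusted p = 0.0529 over all probes). With its probes averaged Mcm7 passed the test (0.25, adjusted p = 0.0449).

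Mcm2 read 9.97, 9.80 and 9.99 against 10.19, 10.02 and 10.23, and its differences in the litters were close to each other at 0.22, 0.21 and 0.24. It was not called either without litter (adjusted p = 0.213, limma) or with litter as a fixed block (adjusted p = 0.0723). Both tissues were lower in litter 2, so the spread between litters was nearly as large as the difference between tissues. Mcm3 read 8.92, 8.97 and 8.96 against 9.21, 9.09 and 9.08 (0.17, adjusted p = 0.256). Mcm4 read 12.58, 12.56 and 12.57 against 12.71, 12.61 and 12.80 (0.14, adjusted p = 0.350). Mcm5 read 12.09, 11.94 and 11.87 against 12.14, 12.05 and 12.24 (0.18, adjusted p = 0.293) and was the only gene of the ring whose groups overlapped.

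Mcm10, which helps to activate the helicase and recruits DNA polymerase alpha, had the largest difference of all members. It read 10.15, 10.01 and 10.05 in the oral libraries against 10.42, 10.39 and 10.21 in the tooth germ libraries, and every tooth germ library lay above every oral tissue library. The difference was 0.27 (SE 0.085, 95% interval 0.085 to 0.46), or 1.21-fold, with adjusted p = 0.101 without litter, with litter as a fixed block adjusted p = 0.0410, and with litter as a random effect adjusted p = 0.0582 with an estimated correlation. A dimmer probe of Mcm10 differed by 0.25, with adjusted p = 0.0536 over all probes.

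The other genes of origin licensing and the fork showed smaller differences. Gins1 and Gins2, subunits of the GINS complex, differed by 0.15 and 0.12 (adjusted p = 0.434 and 0.503). The loading factor Cdc6 read 9.23, 8.99 and 8.96 against 9.34, 9.16 and 8.89, a difference of 0.070 (adjusted p = 0.833). Its partner Cdt1 read 10.88, 10.66 and 10.67 against 10.71, 10.69 and 10.69 (-0.036, adjusted p = 0.885). The sliding clamp Pcna read 8.01, 8.16 and 7.97 against 8.23, 8.38 and 7.85 (0.11, SE 0.12, adjusted p = 0.716). For Cdc6 and Pcna litters differed by more than tissues. The range of their litter means, over both tissues, was 0.36 for each, above that of 97.7% and 97.6% of all genes.

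At their brightest probes all 4 genes of nucleotide supply read higher in titled tooth germ in every litter. The ribonucleotide reductase subunits Rrm1 and Rrm2 differed by 0.22 and 0.19 (adjusted p = 0.151 and 0.316). Tyms, the synthase of thymidylate, read 10.83, 10.98 and 10.85 against 11.05, 11.15 and 11.08 (0.20, SE 0.078, adjusted p = 0.191). Thymidine kinase Tk1 read 10.25, 10.31 and 10.09 against 10.34, 10.59 and 10.49 (0.26, SE 0.093, adjusted p = 0.162). The groups did not overlap for Rrm1, Tyms and Tk1, and for Rrm2 titled oral tissue of litter 1 (9.19) lay above titled tooth germ of litters 2 and 3 (9.16 and 9.18). Rrm1 passed the test where the variance was modelled without a trend (adjusted p = 0.0467). A second probe of Rrm1 differed by 0.062 (adjusted p = 0.902, limma over all probes). In litter 2 that probe read 9.19 in titled oral tissue against 9.11 in titled tooth germ. For Tk1 the second probe differed by 0.13, and the probes with means under 7.01 by -0.023 and -0.019.

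The regulators of entry into S phase were split. Ccne1 and Ccne2 encode the E cyclins, which drive that entry with Cdk2. Ccne1 read 9.26, 8.77 and 9.01 against 8.96, 8.87 and 8.79, the most negative difference of the replication genes (-0.14, SE 0.11, 95% interval -0.39 to 0.11, adjusted p = 0.610). Ccne2 differed by 0.063 (adjusted p = 0.811). E2f1, a transcription factor that activates S phase genes, read 10.27, 10.37 and 10.27 against 10.49, 10.60 and 10.34 (0.17, SE 0.087, adjusted p = 0.349).

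**Figure D2:**
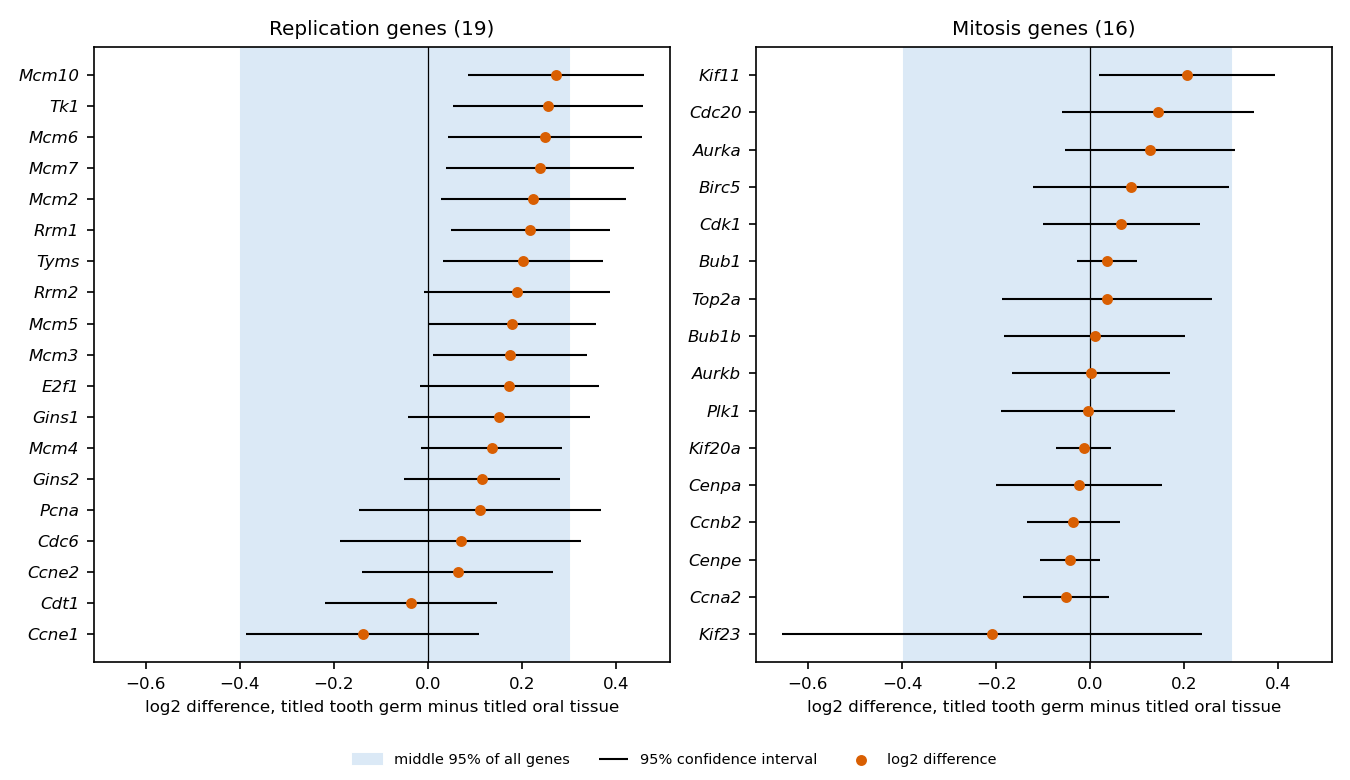
Log2 difference of each member, titled tooth germ minus titled oral tissue (x axis), with its 95% confidence interval from limma (lines) and the range that holds the middle 95% of all 19057 genes (shaded, -0.40 to 0.30). Every member lies inside the shaded range, 17 of 19 replication genes lie above 0, and the mitosis genes lie on both sides with 9 of 16 above 0.

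The mitosis genes were spread around 0. Of 16 measured, 9 differences were above 0 and 7 below, and the median size of a difference, sign aside, was 0.039, against 0.17 for the replication genes and 0.046 for all genes. The probes of Ccna2, Ccnb2, Bub1, Cenpe and Kif20a were dim, with means under 7.01, and there a true difference can be compressed. No replication gene was so dim, while 6907 of all 19057 genes were, so these sizes come from unlike sets. Over the other 11 mitosis genes the median difference, sign kept, was 0.036. The 95% interval stayed within 0.5 on the log2 scale (1.41-fold) in both directions for every member of both lists except Kif23.

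Among the mitotic kinases, Cdk1, which drives entry into mitosis, read 10.53, 10.60 and 10.46 against 10.57, 10.62 and 10.61 (0.066, 95% interval -0.10 to 0.23, adjusted p = 0.741). Plk1, a kinase of spindle assembly, read 10.80, 10.65 and 10.86 against 10.82, 10.67 and 10.81 (-0.0043, 95% interval -0.19 to 0.18, adjusted p = 0.988). For both genes libraries of the 2 tissues interleave. The Aurora kinases act at spindle poles (Aurka) and at centromeres (Aurkb). Aurka read 9.92, 10.11 and 9.98 against 10.14, 10.06 and 10.18 (0.13, adjusted p = 0.492), and Aurkb 9.73, 9.66 and 9.60 against 9.65, 9.71 and 9.64 (0.0016, adjusted p = 0.995). The cyclins Ccna2 and Ccnb2, both dim, differed by -0.051 and -0.035 (adjusted p = 0.609 and 0.767).

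The checkpoint and centromere genes also overlapped between the tissues. Cdc20, which activates the anaphase-promoting complex, read 10.98, 10.86 and 10.91 against 11.03, 10.91 and 11.24 (0.14, SE 0.093, adjusted p = 0.490). At this probe, its brightest, the difference was above 0 in every litter, and the tooth germ library of litter 3 was the highest. The difference between tissues was above 0 at all 4 probes of Cdc20, from 0.077 to 0.20, but not in every litter. The second probe read 10.28 in titled oral tissue against 10.27 in titled tooth germ in litter 2. The third read 9.73 against 9.60 in litter 1. Birc5, or survivin, a subunit of the chromosomal passenger complex, read between 10.93 and 11.17 in titled oral tissue and between 11.03 and 11.28 in titled tooth germ (0.087, adjusted p = 0.723). Cenpa, the centromeric histone, read 12.62, 12.79 and 12.55 against 12.52, 12.71 and 12.65 (-0.024, adjusted p = 0.926). The checkpoint kinase relatives Bub1b and Bub1 differed by 0.0095 and 0.036 (adjusted p = 0.975 and 0.602) and the kinesin Cenpe, which links chromosomes to the spindle, by -0.043 (adjusted p = 0.517).

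Of the chromosome and motor genes, Kif11, the kinesin that pushes spindle poles apart, had the largest positive difference of the mitosis genes. It read 8.98, 8.79 and 8.80 against 9.17, 8.97 and 9.05 (0.21, SE 0.086, 95% interval 0.018 to 0.39, adjusted p = 0.235). The tissues overlapped only through litter 1 of titled oral tissue, at 8.98, and litter 2 of titled tooth germ, at 8.97. Top2a, the topoisomerase that untangles chromosomes, read 10.79, 10.73 and 10.86 against 11.07, 10.73 and 10.70 (0.036, adjusted p = 0.907). Kif20a, a kinesin of cytokinesis, was dim and differed by -0.014 (adjusted p = 0.862).

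At its brightest probe Kif23, the motor of the central spindle, varied more between litters than between tissues. Its brightest probe read 10.82, 10.22 and 11.02 in the oral libraries against 10.79, 10.07 and 10.58 in the tooth germ libraries, so litter 2 was lowest in both. The range of the litter means was 0.66, above that of 99.7% of all genes. The difference between tissues was -0.21 (SE 0.20, 95% interval -0.65 to 0.24, adjusted p = 0.685). The 4 probes of Kif23 did not run alike. The others differed by -0.31, 0.071 and 0.13 (unadjusted p = 0.0249, 0.420 and 0.0232, limma over all probes), none of them called. The third probe, at 9.41 to 9.63 in all libraries, was lowest in litter 2 by a small margin (9.41 and 9.56).

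**Figure D3:**
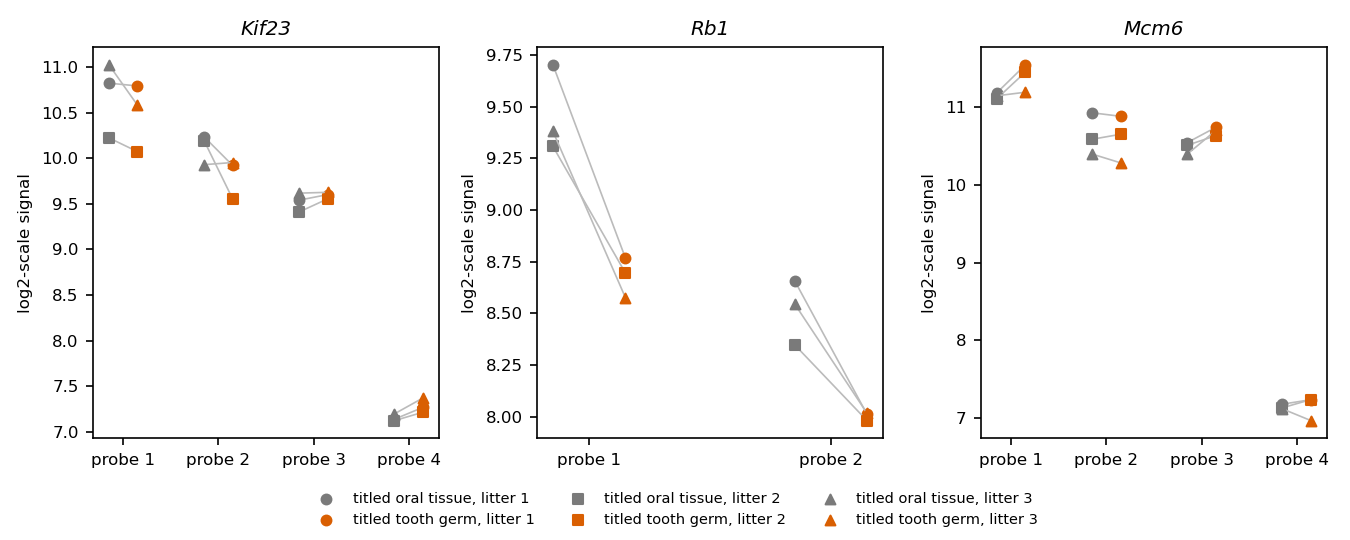
Log2-scale signal (y axis) of every probe of Kif23, Rb1 and Mcm6, ordered by mean signal, in titled oral tissue (grey) and titled tooth germ (orange), with lines that join libraries of a litter. At probe 1 of Kif23 both tissues of litter 2 (10.22 and 10.07) lie below the other libraries, both probes of Rb1 are lower in titled tooth germ in every litter, and the probes of Mcm6 differ in direction.

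Probes of the same gene were compared for the other members as well. The 35 members had 76 probes, none of them called when all probes were tested together. For 17 members more than 1 probe had a mean above 7.01, and these probes shared the sign of the difference for 11 and did not for 6 (Mcm6, Tyms, Birc5, Cenpa, Top2a and Kif23). The second probe of Mcm6 read 10.93, 10.59 and 10.40 in the oral libraries against 10.89, 10.65 and 10.29 in the tooth germ libraries, a difference of -0.031, while the third differed by 0.21. In litter 3 the third probe read 10.40 in titled oral tissue against 10.70 in titled tooth germ, and the fourth 7.12 against 6.97. For Tyms 4 of these 5 probes were above 0, at 0.13 to 0.26, and the dimmest was at -0.024. With the mean of all probes the median of the replication genes was 0.13 in place of 0.17.

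The rest of the pathway was described by lists of other genes. Limma called 1 of 45 other replication genes, which rose, where 5.81% of all genes were called. Their median difference was 0.072 with 36 values above 0, against 0.0026 and 9866 of 19057 over all genes. At an unadjusted p under 0.05, 10 were higher and 2 lower, against 8.25% and 8.86% of all genes. The groups did not overlap for 9 higher and 4 lower, against 11.9% and 11.2% of all genes. The 2 lower by p were Cdc7 and Lig1, named after their values were seen, at -0.26 and -0.18 (adjusted p = 0.114 and 0.262, limma). Ung, which removes uracil from DNA, read 10.00, 10.21 and 10.17 in the oral libraries against 10.48, 10.55 and 10.68 in the tooth germ libraries. No libraries overlapped, and the difference was 0.45 (SE 0.089, adjusted p = 0.0108). The call did not hold without oral tissue library 1 (0.38, adjusted p = 0.0531), without litter 1 or litter 3 (adjusted p = 0.0874 and 0.0747) or with all 5 of its probes averaged (0.14, adjusted p = 0.102). With litter as a fixed block the count was 2, the other gene being Tipin, a fork protection factor, at 0.29 (adjusted p = 0.0266, against 0.0517 without the block and 0.0284 with an estimated correlation), which is named after its value was seen.

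In the E2F and retinoblastoma network 1 of 18 genes was called, and it fell, where 3.42% of all genes were called lower (median of the list 0.017). The gene that fell was Rb1 itself, the retinoblastoma protein that restrains E2F and also acts in muscle differentiation. It read 9.70, 9.31 and 9.38 in the oral libraries against 8.77, 8.70 and 8.58 in the tooth germ libraries, with no overlap. The difference was -0.78 (SE 0.11, adjusted p = 8.4e-04), which makes it 1.72-fold higher in titled oral tissue. A dimmer probe differed by -0.51 (adjusted p = 0.0026 over all probes). The skeletal muscle markers fell in the same libraries (median -1.90), and their part in the Rb1 value was not tested. The relatives Rbl1 and Rbl2, named after their values were seen, differed by 0.030 and -0.016 (adjusted p = 0.913 and 0.867). The probe of Rbl2 was dim, with a mean under 7.01, and a true difference can be compressed there.

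The remaining lists hold genes of mitosis, and none of their members was called by limma in the fit without litter. Of all genes 5.81% were called, and at an unadjusted p under 0.05 8.25% were higher and 8.86% lower. Of 40 kinetochore and checkpoint genes 0 were called and 6 had an unadjusted p under 0.05, 5 higher and 1 lower (median 0.057). These include Spc24, a subunit of the NDC80 complex, at 0.22 (adjusted p = 0.133), and Zwint, a kinetochore protein, at -0.21 (adjusted p = 0.162). In this list the groups did not overlap for 9 genes higher and 1 lower, against 11.9% and 11.2% of all genes. In each litter the difference was above 0 for 18 of the 40 and below 0 for 3, against 21.6% and 19.8% of all genes. Small positive values were thus not confined to the replication genes. Of 25 genes of spindle and cytokinesis 0 were called and 3 had an unadjusted p under 0.05, all lower (median -0.013). Among these 3 were the cytokinetic scaffold Anln at -0.21 (adjusted p = 0.201) and Racgap1, the partner of Kif23, at -0.066 (adjusted p = 0.251). The probe of Racgap1 was dim, with a mean under 7.01. Of 32 genes of mitotic entry, exit and chromosome structure 0 were called and 4 had an unadjusted p under 0.05, all higher (median 0.025). The groups did not overlap for 1 higher and 2 lower of the spindle list, and for 4 higher and 0 lower of this last list.

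The leading genes of the last list were the phosphatases Cdc25a and Cdc25c, which activate cyclin-dependent kinases. Cdc25a read 8.73, 8.72 and 8.88 against 8.93, 9.24 and 9.26, without overlap (0.36, SE 0.099, adjusted p = 0.0554). Cdc25c read 8.09, 8.21 and 8.16 against 8.29, 8.37 and 8.71, also without overlap (0.31, SE 0.10, adjusted p = 0.124). With litter as a fixed block both were called (adjusted p = 0.0114 and 0.0388), and the count of this list rose from 0 to 2. With litter as a random effect Cdc25a alone was called (adjusted p = 0.0282 with an estimated correlation, and 0.0749 for Cdc25c). Over all genes the fixed block raised the share called from 5.81% to 8.88%.

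**Figure D4:**
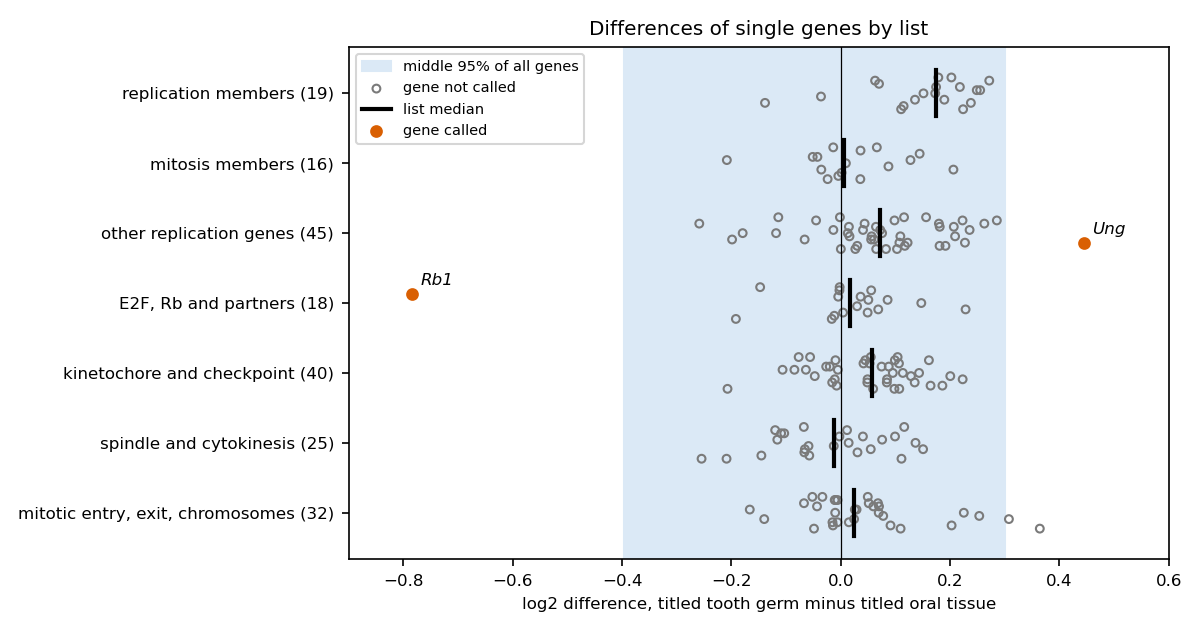
Log2 difference of every measured gene of the replication and mitosis lists (cell type markers are not plotted), titled tooth germ minus titled oral tissue (x axis), by list (rows, number of genes in brackets), with the median of each list as a bar and the middle 95% of all genes shaded. Ung (0.45) and Rb1 (-0.78) are the plotted genes that passed the test, and the replication members have the highest median of the plotted lists (0.17).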

How the data were processed

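Illumina bead arrays of 1 colour (Cy3) measured RNA in 6 libraries, 3 per tissue. The deposited table holds log2-scale values by probe. Its software was lumi 2.8.0, per the submitters' processing notes. Plain log2 or a variance-stabilised form could not be distinguished from the labels. The arrays had been quantile normalized, since their sorted columns differ by at most 0.000827, and were used as deposited. With 3 arrays a tissue, precision rests on few samples.

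The platform annotation gave 1 symbol to 34885 of 45281 probes, several to 18 and none to 10378. RefSeq held 34807 of the named probes' genes, with 0 symbols changed. The brightest probe per gene was kept (19057 genes). The comparison of tissues used limma 3.58.1 under R 4.3.3 (lmFit, eBayes with a mean-variance trend, 4 residual degrees of freedom), with Benjamini-Hochberg adjustment over all genes and calls at adjusted p under 0.05. The code was tested on simulated data. Intervals are 95% and SE is the moderated standard error. Promoter words were counted per gene over all RefSeq windows it has, and are described without a test.

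Litter pairs the libraries per the labels. Deviations from tissue means correlated at 0.413, 0.233 and 0.266 for same-numbered libraries over 9528 genes, and at -0.267 to -0.0724 otherwise. Deviations cancel within a tissue, so positive values for same-numbered libraries make the others negative on average, and the negative range adds no separate evidence. The fit without litter is the main one, and the blocked value is given where it changes a call. Members and lists were chosen with earlier results of these data known. Named were all members, up to 3 called genes of each other list by size (or 2 by p where none was called), and 4 genes that check the labels. Alternatives were litter as a fixed or random block, repeated quantile normalization, median centring, removal of dim genes, the mean of all probes, no trend, robust shrinkage, array weights, a stricter threshold, and leaving out each library or litter.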

Additional observations from a re-analysis of the deposited data

How the results depend on the processing

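Over 19 alternative settings the number of mitosis members called stayed at 0, Rb1 stayed called (-0.87 to -0.65, adjusted p = 4.9e-05 to 0.0125), and the kinetochore and spindle lists stayed at 0. The stricter threshold, among these settings, cannot raise a count and so is no check on a count of 0. The median of the replication members lay between 0.13 and 0.20, lowest with the mean of all probes (0.128) and highest without tooth germ library 3 (0.199), and between 0.15 and 0.20 when a library or litter was left out. The median of the mitosis members lay between -0.0082 and 0.036, and between -0.0082 and 0.023 when a library or litter was left out. The number of replication members called was 0 with litter as a random effect, and 1 with litter as a fixed block (Mcm10), with the mean of all probes (Mcm7), without a variance trend (Rrm1) and with array weights (Mcm10), and lay between 0 and 2 when a library or litter was left out (2, Mcm6 and Mcm10, without tooth germ library 3). Of 660 values of members, 29 turned sign, 24 of them in mitosis genes, and none of these passed the threshold in either fit. The count over all genes, 1107, became 1693 with litter as a fixed block and 601 at adjusted p under 0.01. It lay between 549 and 1025 with a library or litter left out, and was 734 without tooth germ library 2, 549 without litter 1 and 668 without litter 3.

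Of the other replication genes, 2 were called with litter as a fixed or random block, with median centring, with dim genes removed and with robust shrinkage (Ung and Tipin each time). There were 4 without a variance trend (also Fen1 and Pold2), 0 with the mean of all probes and at adjusted p under 0.01, and 0 to 1 with a library or litter left out. Of the genes of mitotic entry and exit, 2 were called with litter as a fixed block, 1 (Cdc25a) with litter as a random block, median centring or robust shrinkage, and 0 to 1 with a library or litter left out, 1 being Cdc25a without tooth germ library 1. The fixed block changed the calls of Mcm10, Tipin, Cdc25a and Cdc25c and of no other gene named, and the random effect those of Tipin and Cdc25a only. Dim genes removed leave no value for Ccna2, Ccnb2, Bub1, Cenpe, Kif20a, Racgap1 and Rbl2, and the threshold does not bear on medians. The median half-width of the members' intervals was 0.19, so smaller differences are poorly resolved by 3 arrays per tissue.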
